A study of Mus musculus with 4 samples.

Results

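Transcripts of 10 genes of the NF-kB system were followed over 4 libraries of bulk RNA from fibroblasts grown out of mouse prostate. The 10 genes were taken by symbol from a table of 56748 gene IDs, and all 10 were among the 14365 genes whose mean over the libraries reached 1 CPM (counts scaled to library size), called measured here. They are the Rel subunit genes Rela, Relb, Nfkb1 and Nfkb2, the inhibitor and feedback genes Nfkbia, Nfkbiz, Tnfaip3 and Birc3, and the adhesion molecule genes Icam1 and Vcam1. All libraries came from male C57BL/6 mice aged 8 to 10 weeks, whose prostates were digested with collagenase and whose cells were then grown in medium with serum. The conditions were BuOE with radiation, PBS (phosphate-buffered saline) with radiation, BuOE and PBS, with 1 library each. Radiation was given to the pelvis of the mice over 5 days, at 7.5 Gy a fraction and 37.5 Gy in all. The title of the series names BMX-001, a manganese porphyrin with superoxide dismutase activity, and the chemical name of that compound contains the letters BuOE. The labels give no dose or time for BuOE and do not say whether animals or cultures received it, nor how many animals a library stands for.

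NF-kB is a family of dimeric transcription factors. In resting cells inhibitors of the IkB family hold the dimers in the cytoplasm. Cytokine receptors and other stress signals activate the IKK kinases, which mark the inhibitors for degradation so that the dimers enter the nucleus. Among the genes they then transcribe are their own inhibitors, so that the transcripts of feedback genes follow recent pathway activity in many cell types. In stromal cells the pathway also controls adhesion molecules and cytokines.

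Because each condition had 1 library, no difference has a replicate check or a p-value, and each ratio compares 2 libraries and not 2 conditions. Ratios are log2 ratios of CPM scaled by TMM (trimmed mean of M-values). The range after a ratio is its 95% exact binomial interval, which covers counting error only. The 10 genes and the wider lists below were chosen with earlier results of these data known. Shares of all genes are set beside them as a description and not as a test. The deposited counts summed to 24996835 in the irradiated BuOE library, 35915448 in the irradiated PBS library, 28856043 in the BuOE library and 29744664 in the PBS library. Mitochondrially encoded genes took 2.65% of the counts in the irradiated BuOE library and between 0.413% and 0.883% in the other libraries. All 9 fibroblast markers were measured in these libraries, and so were all 8 epithelial markers, which the label of fibroblasts does not cover. The fibroblast markers summed to 5788, 8668, 6149 and 7504 CPM in the irradiated BuOE, irradiated PBS, BuOE and PBS libraries. For epithelial markers the sums were 5777, 3751, 5411 and 4430 CPM in those libraries, and for the 8 macrophage markers 527.5, 352.4, 413.3 and 387.0 CPM. The 6 Schwann cell markers summed to 137.4, 165.5, 237.4 and 81.7 CPM and the 6 neuronal markers to 72.1, 154.7, 379.4 and 97.2 CPM. Of the neuronal sums, Uchl1 alone gave 57.99, 81.85, 144.3 and 90.53 CPM, so they hide larger shifts. Prph, for example, stood at 2.43, 20.58, 81.7 and 0.78 CPM. The median log2 ratio of the 6 neuronal markers was 4.28 for BuOE against PBS and -3.62 for irradiated BuOE against BuOE. Lymphocyte markers (7 genes) were all under 1 CPM on average. In bulk RNA, fewer cells of a type and less RNA per cell cannot be told apart, and the part of cell composition in the values of the 10 genes was not tested.

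Promoter sequences were available for 6 of the 10 genes from RefSeq (build GRCm38.p6), as windows of 250 bases before to 50 bases after a transcription start. Binding sites of NF-kB dimers are known as kappaB sites. The windows were searched on both strands for the kappaB consensus. It was read as GGG, A or G, any base, A or T, C or T, C or T, then CC. Sequences that depart from this pattern were not counted. Nfkbia, Tnfaip3 and Nfkb2 had a match, while the windows of Rela, Birc3 and Icam1 had none. Of all 27025 genes with such windows, 5.14% held a match. A match describes these letters only. The Icam1 window holds tggaaattcc, which departs from the pattern only in its first letter, so the lack of a match does not mean the lack of a site. The windows of the 2 feedback genes with the largest ratios are shown first. Then come Nfkb2, with matches and a small ratio, Icam1, with no full match and a large ratio, and Rela. Matches are in capitals.
Nfkbia (chr12:55492598-55492897, minus strand): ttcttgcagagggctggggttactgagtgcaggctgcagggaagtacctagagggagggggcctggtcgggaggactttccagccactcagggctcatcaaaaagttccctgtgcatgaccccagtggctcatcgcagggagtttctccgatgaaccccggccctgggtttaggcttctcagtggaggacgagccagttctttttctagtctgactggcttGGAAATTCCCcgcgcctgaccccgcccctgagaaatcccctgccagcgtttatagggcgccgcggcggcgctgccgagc
Tnfaip3 (chr10:19015361-19015660, minus strand): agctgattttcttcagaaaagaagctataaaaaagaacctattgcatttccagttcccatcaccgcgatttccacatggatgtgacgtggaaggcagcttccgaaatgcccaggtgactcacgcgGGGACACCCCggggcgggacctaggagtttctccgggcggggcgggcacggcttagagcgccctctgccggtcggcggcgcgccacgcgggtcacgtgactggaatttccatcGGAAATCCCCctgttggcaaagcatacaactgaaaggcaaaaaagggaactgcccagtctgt
Nfkb2 (chr19:46304487-46304786, plus strand): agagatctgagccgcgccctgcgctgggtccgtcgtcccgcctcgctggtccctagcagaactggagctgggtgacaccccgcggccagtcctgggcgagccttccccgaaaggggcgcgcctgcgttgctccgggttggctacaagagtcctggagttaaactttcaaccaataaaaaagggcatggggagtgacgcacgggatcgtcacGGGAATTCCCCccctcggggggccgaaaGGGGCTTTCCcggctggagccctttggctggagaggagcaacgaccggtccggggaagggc
Icam1 (chr9:21015690-21015989, plus strand): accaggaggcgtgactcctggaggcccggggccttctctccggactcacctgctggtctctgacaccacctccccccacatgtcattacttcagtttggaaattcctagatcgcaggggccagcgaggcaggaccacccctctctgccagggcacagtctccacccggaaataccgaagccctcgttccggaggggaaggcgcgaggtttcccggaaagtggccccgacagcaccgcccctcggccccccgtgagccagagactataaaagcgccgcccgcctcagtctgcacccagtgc
Rela (chr19:5637291-5637590, plus strand): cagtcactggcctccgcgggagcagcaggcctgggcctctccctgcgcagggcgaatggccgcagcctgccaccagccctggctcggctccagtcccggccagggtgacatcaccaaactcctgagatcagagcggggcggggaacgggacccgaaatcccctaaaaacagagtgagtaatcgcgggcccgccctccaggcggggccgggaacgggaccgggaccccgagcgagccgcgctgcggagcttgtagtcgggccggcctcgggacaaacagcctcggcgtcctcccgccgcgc

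The match in the Nfkbia window starts 29 bases before the transcription start and reads GGGAATTTCC on the opposite strand. In the Tnfaip3 window the match closest to the start reads GGGGATTTCC, also on the opposite strand. The Nfkb2 window holds GGGGCTTTCC on the gene's own strand, 11 bases before the start, beside the palindrome GGGAATTCCC. Both further windows of Nfkb2 in RefSeq hold matches, but these windows overlap. The match GGGACTTTCC lies in the part they share and is the only match in the last of them. The other window of Tnfaip3 holds no match.

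The clearest pattern was among the inhibitor and feedback genes, which were highest in the irradiated BuOE library. Nfkbia, which encodes the inhibitor IkB-alpha that retains NF-kB in the cytoplasm, stood at 268.4 CPM in the irradiated BuOE library, 91.6 CPM in the irradiated PBS library, 107.5 CPM in the BuOE library and 69.2 CPM in the PBS library. The irradiated BuOE library thus stood apart from the other libraries, and PBS was the lowest. Its log2 ratio was 1.55 (1.49 to 1.61) against the irradiated PBS library and 1.32 (1.26 to 1.38) against the BuOE library. The ratios were smaller where that library was not involved: 0.40 (0.32 to 0.49) for irradiated PBS against PBS, and 0.64 (0.56 to 0.72) for BuOE against PBS. Over the 4 libraries Nfkbia spanned a 3.88-fold range, against a median range of 1.41-fold over the 9870 genes averaging 10 CPM or more.

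Tnfaip3 encodes A20, a ubiquitin-editing enzyme that shuts off signalling from cytokine receptors to IKK. It stood at 98.9 CPM in the irradiated BuOE library, 41.4 CPM in the irradiated PBS library, 53.9 CPM in the BuOE library and 40.8 CPM in the PBS library. The irradiated and unirradiated PBS libraries differed by less than counting error, at 0.02 (-0.09 to 0.13), a ratio whose sign changed with DESeq2 and upper-quartile scaling. The irradiated BuOE library was higher than both its counterparts, by 1.26 (1.16 to 1.35) against irradiated PBS and by 0.87 (0.78 to 0.97) against BuOE. BuOE without radiation was higher than PBS by 0.40 (0.29 to 0.51).

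Nfkbiz encodes IkB-zeta, a nuclear member of the IkB family that acts as a cofactor for a subset of NF-kB target genes. Its levels were 86.7 CPM in the irradiated BuOE library, 53.2 CPM in the irradiated PBS library, 55.3 CPM in the BuOE library and 50.8 CPM in the PBS library. The first stood apart from the other libraries, by 0.70 (0.61 to 0.79) against irradiated PBS and 0.65 (0.55 to 0.74) against BuOE. Irradiated PBS and PBS differed by 0.07 (-0.03 to 0.17), and BuOE and PBS by 0.12 (0.02 to 0.23).

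Birc3 encodes cIAP2, a ubiquitin ligase of the TNF receptor complex that is itself a target of NF-kB. It stood at 69.2 CPM in the irradiated BuOE library, 43.3 CPM in the irradiated PBS library, 59.1 CPM in the BuOE library and 42.5 CPM in the PBS library. Here both BuOE libraries lay above both PBS libraries, with ratios of 0.68 (0.58 to 0.78) with radiation and 0.47 (0.37 to 0.58) without. Radiation ratios were 0.23 (0.13 to 0.33) in the BuOE arm and 0.03 (-0.08 to 0.14) in the PBS arm, where the sign changed with DESeq2 and upper-quartile scaling.

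**Figure D1:**
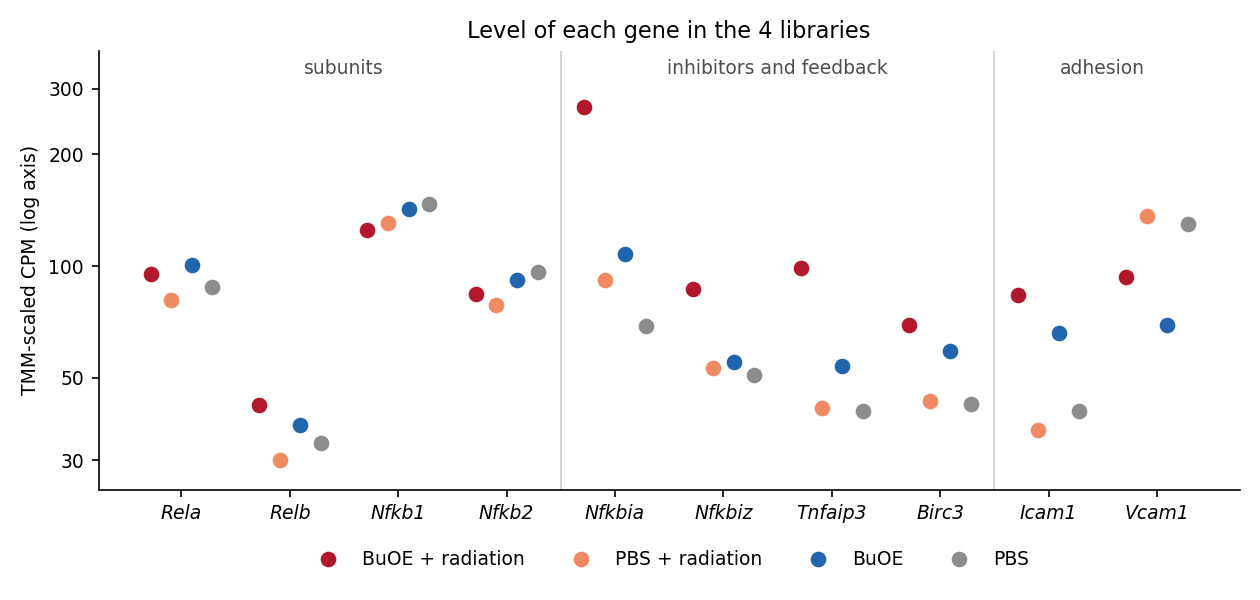
TMM-scaled CPM (log axis) of the 10 genes in the 4 libraries, 1 point a library, with the genes grouped by role. The irradiated BuOE library (dark red) is highest for Nfkbia at 268.4 CPM and for Nfkbiz, Tnfaip3, Birc3, Icam1 and Relb, while Rela, Nfkb1 and Nfkb2 lie close together in all libraries.

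The subunit genes varied much less. Rela, which encodes the main activating subunit p65, ranged over 1.25-fold, with 95.5 CPM in the irradiated BuOE library, 80.9 CPM in the irradiated PBS library, 100.7 CPM in the BuOE library and 87.9 CPM in the PBS library. Both BuOE libraries were above both PBS libraries, by 0.24 (0.16 to 0.32) with radiation and 0.20 (0.12 to 0.27) without. In the BuOE arm its radiation ratio of -0.08 (-0.16 to 0.00) turned positive with upper-quartile scaling, at 0.04.

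Nfkb1 encodes p105, the precursor of the DNA-binding subunit p50, and was the most evenly expressed of the 10 genes, over a 1.17-fold range. Its levels were 125.1 CPM in the irradiated BuOE library, 130.8 CPM in the irradiated PBS library, 142.1 CPM in the BuOE library and 146.8 CPM in the PBS library. Irradiated libraries were lower than unirradiated ones in both arms, at -0.18 (-0.25 to -0.12) with BuOE and -0.17 (-0.23 to -0.11) with PBS. Its ratios of BuOE to PBS, -0.06 with radiation and -0.05 without, had intervals that include 0, and they changed sign with upper-quartile scaling (0.07) and with library size alone (0.04).

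Nfkb2 encodes p100, the precursor of p52 and the regulator of the non-canonical arm of the pathway. It stood at 84.3 CPM in the irradiated BuOE library, 78.5 CPM in the irradiated PBS library, 91.6 CPM in the BuOE library and 96.5 CPM in the PBS library. Irradiated PBS was lower than PBS, at -0.30 (-0.37 to -0.22), the lowest radiation ratio of the 10 genes in that arm. The ratio of irradiated BuOE to BuOE was -0.12 (-0.20 to -0.04), and that of BuOE to PBS, -0.07 (-0.15 to 0.00), turned positive with library size alone, at 0.02. Nfkb2 shares exon sequence with 2 genes on the opposite strand, Psd and the non-coding RNA gene AC114539.1, whose own counts were at most 47 and 162 in any library, against at least 2049 for Nfkb2. No strand setting of the counting is stated, so reads of such pairs cannot be told apart.

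Relb encodes the subunit that pairs with p52 in the non-canonical arm. It was the least abundant of the 10 genes by mean CPM, at 42.2 CPM in the irradiated BuOE library, 30.04 CPM in the irradiated PBS library, 37.3 CPM in the BuOE library and 33.4 CPM in the PBS library. It was the only subunit gene whose radiation ratio was above 0 in the BuOE arm with TMM scaling, at 0.18 (0.06 to 0.30); Rela joined it with upper-quartile scaling. In the PBS arm its ratio was -0.15 (-0.28 to -0.03). The ratio between the irradiated libraries, 0.49 (0.37 to 0.62), was the largest of any subunit gene.

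The adhesion molecule genes went apart. Icam1 encodes a ligand of leukocyte integrins and stood at 83.7 CPM in the irradiated BuOE library, 36.2 CPM in the irradiated PBS library, 66.1 CPM in the BuOE library and 40.6 CPM in the PBS library. Both BuOE libraries were above both PBS libraries, by 1.21 (1.11 to 1.31) with radiation and 0.70 (0.60 to 0.81) without. Radiation ratios were 0.34 (0.25 to 0.43) in the BuOE arm and -0.17 (-0.28 to -0.05) in the PBS arm. An antisense gene that overlaps Icam1 had at most 11 counts in any library.

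Vcam1 encodes a ligand of the integrin VLA-4 and was lower with BuOE, where Icam1 was higher. It stood at 93.7 CPM in the irradiated BuOE library, 136.1 CPM in the irradiated PBS library, 69.3 CPM in the BuOE library and 129.5 CPM in the PBS library. Both BuOE libraries were below both PBS libraries, at -0.54 (-0.61 to -0.47) with radiation and -0.90 (-0.98 to -0.82) without. Within the BuOE arm the irradiated library was above the unirradiated one by 0.43 (0.35 to 0.52), while irradiated PBS and PBS differed by 0.07 (0.01 to 0.13). Endothelial cells express both adhesion molecules, and their 8 markers summed to 647.8 CPM in the irradiated BuOE library, 722.6 CPM in the irradiated PBS library, 590.6 CPM in the BuOE library and 433.3 CPM in the PBS library. The part of endothelial cells in either value was not tested.

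**Figure D2:**
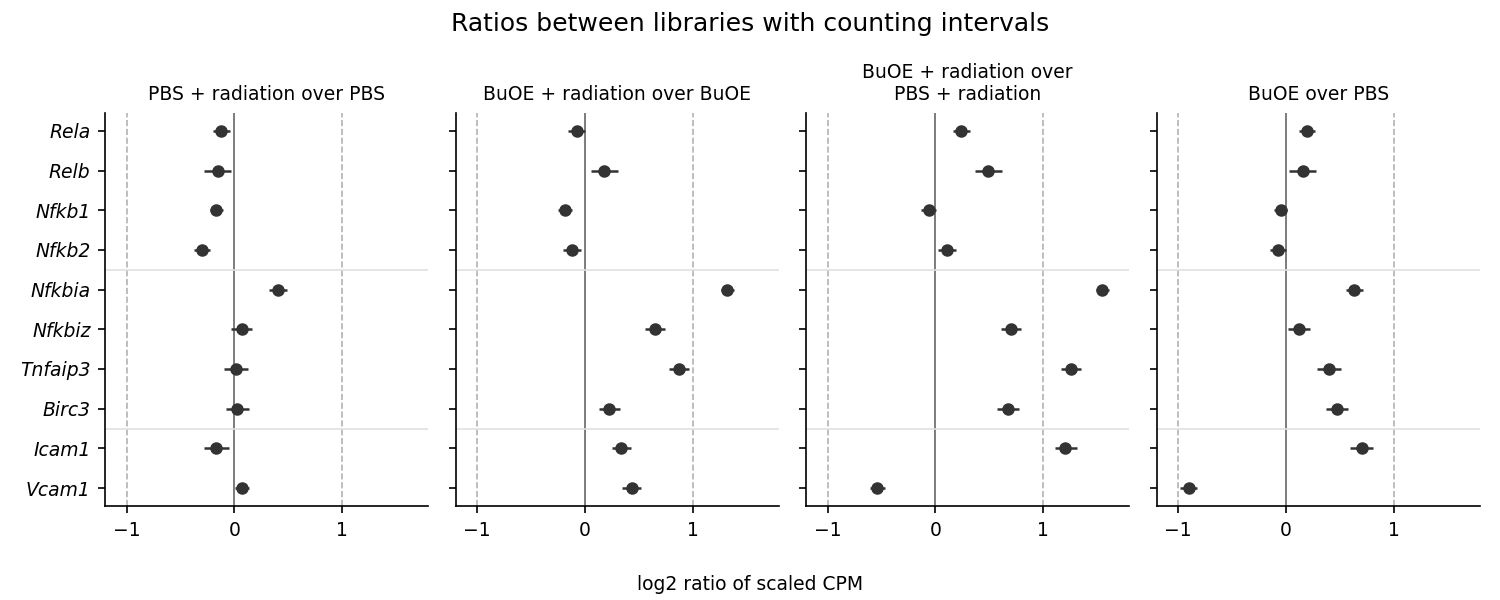
Log2 ratios of scaled CPM for the 10 genes in the 4 comparisons, with 95% counting intervals as bars; dashed lines mark 2-fold. Nfkbia, Tnfaip3 and Icam1 lie past 2-fold between the irradiated libraries (1.55, 1.26 and 1.21), and Vcam1 is the gene furthest below 0 in both comparisons of BuOE with PBS (-0.54 and -0.90).

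The PBS arm shows the radiation ratio without BuOE. None of the 10 genes was at least 2-fold or 1.5-fold higher or lower in the irradiated PBS library than in the PBS library. Of all 14365 genes measured, 5.62% were 2-fold higher or more and 1.02% were lower by as much, and at 1.5-fold the shares were 10.9% and 3.56%. The median ratio of the 10 genes was -0.05, against 0.00 for all genes. The intervals of 7 genes left out 0: Nfkbia and Vcam1 lay above it, and Icam1 and the 4 subunit genes below it. Of all genes measured, 30.4% had intervals above 0 and 29.3% below 0.

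In the BuOE arm, the irradiated library was at least 2-fold higher for 1 of the 10 genes, Nfkbia, and lower for none, where 2.27% of all genes were 2-fold higher and 4.94% lower. At least 1.5-fold higher were 3 genes, Nfkbia, Tnfaip3 and Nfkbiz, against 8.30% of all genes, and with library size alone there were 2. No member was 1.5-fold lower, against 11.4% of all genes. The median ratio of the 10 genes was 0.28, against -0.03 for all genes. All 4 inhibitor and feedback genes, both adhesion molecule genes and Relb had intervals above 0, as did 29.6% of all genes. Nfkb1 and Nfkb2 had intervals below 0, as did 34.3%.

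Between the irradiated libraries, 3 of the 10 genes were at least 2-fold higher with BuOE than with PBS, namely Nfkbia, Tnfaip3 and Icam1, where 3.81% of all genes were 2-fold higher. None was 2-fold lower, against 5.92% of all genes. At the lower threshold Birc3 and Nfkbiz joined them, which made 5 genes at least 1.5-fold higher against 11.0% of all genes, while none was 1.5-fold lower against 14.6%. The median ratio of the 10 genes was 0.58 and that of all genes -0.07. Intervals lay above 0 for 8 of the 10 genes and 29.9% of all genes, and below 0 for Vcam1 and 40.4% of all genes. Of the genes averaging 10 CPM or more, which include all 10 members, 2.48% were 2-fold higher. In the same comparison 6289 of all 14365 genes measured lay above 0. Of the fibroblast markers, 5 of 9 were at least 2-fold lower and 7 of 9 lay below 0, while 2, Dcn and Pdgfra, lay above 0. All 8 epithelial markers lay above 0 with 2 past 2-fold, and 7 of 8 macrophage markers lay above 0. Whether these shifts take part in the ratios of the 10 genes was not tested.

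Without radiation, none of the 10 genes was 2-fold higher or lower in the BuOE library than in the PBS library, against 8.72% and 4.23% of all genes. Icam1 and Nfkbia were at least 1.5-fold higher, a level that 16.0% of all genes reached, and Vcam1 was at least 1.5-fold lower, as were 10.6%. The median ratio was 0.18 for the 10 genes and -0.01 for all genes. Intervals lay above 0 for 7 of the 10 genes and 33.9% of all genes, and below 0 for Vcam1 and 36.1% of all genes. The comparisons share libraries with one another, so their ratios are not independent: every member's ratio above 1 involves the single irradiated BuOE library.

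The radiation ratio was higher in the BuOE arm than in the PBS arm for 9 of the 10 genes and for 47.0% of all genes. Nfkb1 was the exception among the 10 at -0.02 (-0.11 to 0.07), which turned positive with DESeq2 and upper-quartile scaling. The difference of the 2 log2 ratios was 0.92 (0.82 to 1.02) for Nfkbia, 0.86 (0.71 to 1.00) for Tnfaip3, 0.58 (0.45 to 0.71) for Nfkbiz and 0.20 (0.06 to 0.35) for Birc3. It was 0.51 (0.36 to 0.65) for Icam1 and 0.36 (0.26 to 0.47) for Vcam1. For the subunit genes it was 0.33 (0.16 to 0.51) for Relb, 0.18 (0.07 to 0.29) for Nfkb2 and 0.04 (-0.07 to 0.15) for Rela, which turned negative with library size alone. At least 1.5-fold above 0 were 2 genes, against 8.23% of all genes, and none was 1.5-fold below 0, against 15.6%. Nfkbiz lay just under that threshold, and 3 genes passed it with DESeq2 and 4 with upper-quartile scaling. With TMM none was 2-fold above or below 0, against 2.70% and 8.76%. These intervals come from the 4 counts of each gene and cover counting error only, since a design with 1 library a condition leaves no replicate for the interaction.

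Quotients of 2 genes within a library do not depend on the scaling between libraries. Counts were set per kilobase of the median protein-coding transcript (GENCODE M21), and the range after a quotient is again its counting interval. Another length multiplies a quotient by the same factor in every library, so its level depends on the length used and its ratio between libraries does not. Nfkbia stood at 4.84 times the level of Rela (4.61 to 5.08) in the irradiated BuOE library, 1.95 times (1.85 to 2.05) in the irradiated PBS library, 1.84 times (1.75 to 1.93) in the BuOE library and 1.35 times (1.28 to 1.44) in the PBS library. Inhibitor transcripts were thus most abundant relative to those of the p65 subunit in the irradiated BuOE library. Tnfaip3 over Rela was 0.643 (0.607 to 0.681) there, against 0.317 in the irradiated PBS library, 0.332 in the BuOE library and 0.288 in the PBS library. Nfkbiz over Rela was 0.629, 0.456, 0.381 and 0.401 in the same order, and Birc3 over Rela 0.706, 0.522, 0.571 and 0.471. Within the subunits, Relb over Rela was 0.545 in the irradiated BuOE library and between 0.456 and 0.469 in the other libraries, while Nfkb2 over Nfkb1 lay between 0.681 and 0.766 in all libraries. With the union of all exons, a length chosen after the data were seen, Nfkb2 lay above Nfkb1 instead, at quotients from 1.58 to 1.77. Nfkbia over Rela was then 5.36, 2.16, 2.04 and 1.501 in the irradiated BuOE, irradiated PBS, BuOE and PBS libraries. Birc3 over Rela and Relb over Rela were lower by more than 1.5-fold with that length, at 0.445 and 0.350 in the irradiated BuOE library.

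The quotient of Icam1 over Vcam1 per kilobase was 1.06 (1.00 to 1.12) in the BuOE library with radiation and 1.13 (1.06 to 1.20) in the one without. In the PBS libraries it was 0.315 (0.296 to 0.335) with radiation and 0.371 (0.347 to 0.396) without. With the union of all exons it was 1.82 and 1.94 in the BuOE libraries with and without radiation, and 0.541 and 0.638 in the PBS libraries with and without radiation. With either length Vcam1 was the more abundant transcript in both PBS libraries. This quotient separated the BuOE libraries from the PBS libraries more widely than it separated irradiated from unirradiated libraries of either arm.

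**Figure D3:**
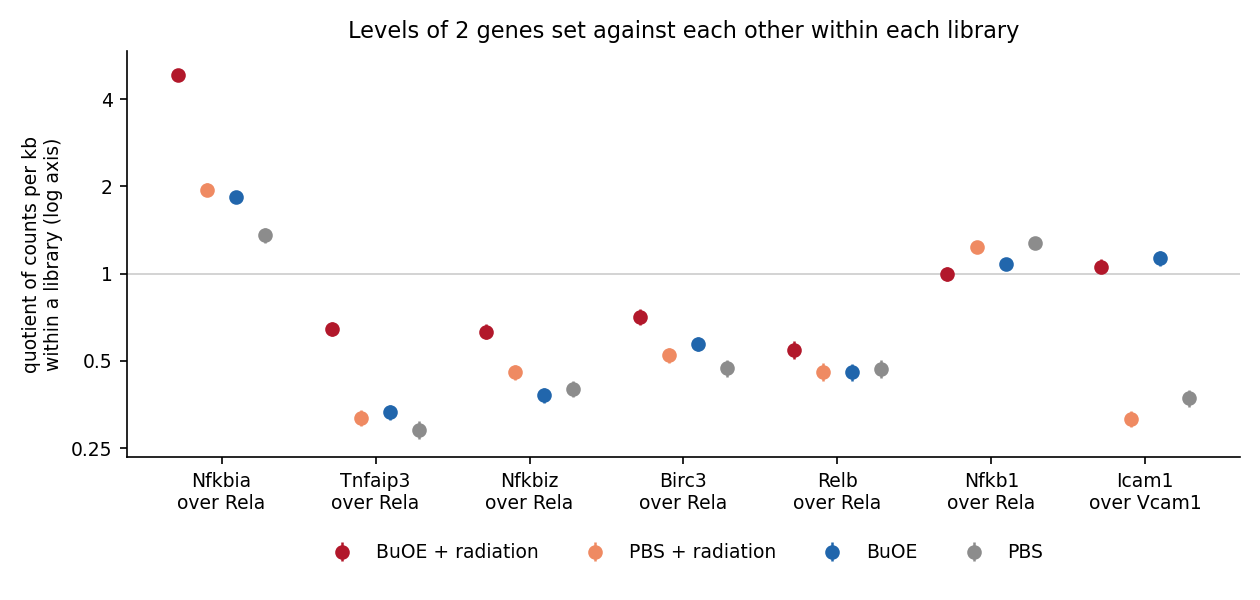
Quotients of the counts per kilobase of 2 genes within each of the 4 libraries (log axis), with 95% counting intervals. Nfkbia over Rela is 4.84 in the irradiated BuOE library and at most 1.95 in the others, and Icam1 over Vcam1 is 1.06 and 1.13 in the BuOE libraries with and without radiation and at most 0.371 in both PBS libraries; with the union of all exons these become 1.82, 1.94 and at most 0.638.

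Per kilobase of transcript, Nfkbia was the most abundant of the 10 genes in each library, at 170.1 CPM per kilobase in the irradiated BuOE library, 58.0 in the irradiated PBS library, 68.1 in the BuOE library and 43.8 in the PBS library. In the PBS library it did not differ from Vcam1 (43.2) beyond counting error, and Nfkb1 (41.2), Rela (32.4) and Nfkb2 (30.8) came next, the last pair being indistinguishable by counting. Icam1 (16.0), Birc3 (15.3) and Relb (15.2) were neighbours within counting error, and Nfkbiz (12.96) and Tnfaip3 (9.33) closed the order. In the irradiated BuOE library, Rela (35.2) and Nfkb1 (35.1) followed Nfkbia and were equal within counting error, and so were Icam1 (33.0) and Vcam1 (31.2). Tnfaip3 (22.6) and Nfkbiz (22.1) were also equal there, and Relb (19.2) was last. The order depends on the transcript length used. With the union of all exons Nfkbia stayed first in all 4 libraries with Rela second, while Nfkb1 dropped to the last place in the irradiated BuOE library (10.4).

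Other genes of the pathway were taken from 6 lists with 86 genes, 81 of which reached a mean of 1 CPM. All 11 genes listed as negative regulators outside the 10 genes were measured. Of these, 8 of the 11 (72.7%) were highest in the irradiated BuOE library, as were 28.4% of all genes and 6 of the 10 members. Their median ratio between the irradiated BuOE and irradiated PBS libraries was 0.49. Zfp36, which encodes the mRNA-destabilizing protein tristetraprolin, was the only one past 2-fold, at 118.2 against 55.1 CPM (1.10, 1.02 to 1.18), and Itch, which encodes a ubiquitin ligase, had the lowest ratio (-0.03, -0.10 to 0.04). In the BuOE arm Zfp36 had the highest radiation ratio (0.74, 0.66 to 0.82). Sharpin was lowest (-0.11, -0.28 to 0.05), but it encodes a subunit of the linear ubiquitin ligase, which promotes NF-kB signalling. The median radiation ratio of the 11 genes in that arm was 0.30. In the PBS arm it was 0.05, from -0.19 for Otulin, which encodes a deubiquitinase, to 0.28 for Tax1bp1, an adaptor of A20, and between BuOE and PBS without radiation 0.13, with Tnip1, which encodes an A20-binding protein, highest (0.45, 0.36 to 0.54) and Otulin lowest (-0.22).

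The 21 kinases and adaptors, which carry the signal to NF-kB, had a median of -0.11 between the irradiated libraries, which turned to 0.03 with upper-quartile scaling, and none was 2-fold changed in any comparison. Map3k14, which encodes the kinase NIK of the non-canonical arm, stood highest at 24.0 CPM in the irradiated BuOE library against 13.9 CPM in the irradiated PBS library (0.79, 0.61 to 0.96). The lowest was Irak4, a kinase gene of the Toll-like and IL-1 receptor pathway, at 11.3 against 19.9 CPM (-0.81, -1.02 to -0.61). Map3k14 was again the highest (0.57) and Irak4 the lowest (-0.89) in the BuOE arm. With PBS, radiation ratios lay between Myd88, an adaptor gene (-0.24), and Chuk, which encodes IKK-alpha (0.31). Ratios of BuOE to PBS without radiation lay between the kinase gene Ripk2 (-0.76) and Ikbkg, which encodes the IKK scaffold NEMO (0.62).

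The 11 receptor genes, none of them 2-fold changed in any comparison, had the same median of -0.11, also turned to 0.03 with upper-quartile scaling, between Tnfrsf11a, which encodes RANK (0.55, 0.31 to 0.81), and Il1rap, which encodes the IL-1 receptor accessory protein (-0.47, -0.59 to -0.36). In the BuOE arm their median was -0.23, and -0.34 with library size alone, and their ratios ran from -0.85 for Cd40 to 0.30 for Tnfrsf11a. In the PBS arm they ran from -0.39 for Tnfrsf12a, the TWEAK receptor gene, to 0.41 for Il1rap. Between BuOE and PBS without radiation the ratios ran from -0.42 for Tnfrsf12a to 0.68 for Cd40. Of the 6 other Rel and IkB genes none was 2-fold changed in any comparison, and their ratios between the irradiated libraries ran from -0.46 for Nkrf, which encodes a repressor, to 0.49 for Nfkbib, which encodes IkB-beta. Radiation ratios ran from -0.33 for Bcl3, a nuclear IkB gene, to 0.18 for Rel in the BuOE arm and from -0.39 for Nfkbib to 0.16 for Rel in the PBS arm. Ratios of BuOE to PBS without radiation ran from -0.42 for Nkrf to 0.45 for Bcl3.

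Ligand transcripts were scarce, and 5 of 9 ligand genes were measured. Tnf stood at 5.93 CPM in the irradiated BuOE library, 3.93 CPM in the irradiated PBS library, 7.72 CPM in the BuOE library and 5.11 CPM in the PBS library, so that it was lower with radiation in both arms and higher with BuOE whether irradiated or not. The ratio of its irradiated libraries was 0.58 (0.25 to 0.94), the highest of the 5 measured ligand genes. Tnfsf13b, which encodes BAFF, was the lowest of these (-0.47). Among the same genes Il1a was highest (0.80) and Tnf lowest (-0.38) in the BuOE arm. Between BuOE and PBS without radiation Il1b was highest (0.88) and Tnfsf13b lowest (-0.36). The interleukin genes Il1a and Il1b were the only measured ligand genes past 2-fold in any comparison, both in the irradiated PBS library against the PBS library. Il1a stood at 8.08 against 3.30 CPM (1.27, 0.95 to 1.64), and Il1b at 4.52 against 1.91 CPM (1.22, 0.80 to 1.71).

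Other target genes were mixed. Of 28 such genes 27 were measured, and between the irradiated libraries 8 (29.6%) were at least 2-fold higher and 1 (3.70%) lower with BuOE, against 3.81% and 5.92% of all genes. The highest was Gadd45b, a stress and survival gene, at 160.5 CPM in the irradiated BuOE library against 36.2 CPM in the irradiated PBS library (2.15, 2.06 to 2.24). It was followed by the chemokine gene Ccl5 (1.94, 1.67 to 2.25), the granulocyte growth factor gene Csf3 (1.54, 1.15 to 2.00), the chemokine gene Cxcl10 (1.54, 1.25 to 1.87), the kinase gene Map3k8 (1.27, 1.08 to 1.48), the acute phase gene Saa3 (1.15), the complement gene C3 (1.13, 1.08 to 1.18) and the stress response gene Ier3 (1.05, 1.02 to 1.09). Levels of Csf3 were low, at 5.93 CPM in the irradiated BuOE library and 1.99 CPM in the irradiated PBS library. Those of Cxcl10 were 10.7 and 3.62 CPM. The chemokine gene Cxcl5 was lower, at 25.1 against 70.0 CPM (-1.48, -1.61 to -1.35). Over all 81 wider genes, 11.1% were 2-fold higher and 1.23% lower in this comparison. The lists were chosen with earlier results of these data known, so these shares are a description and not a test.

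In the irradiated PBS library 7 of the 81 (8.64%) were at least 2-fold higher than in the PBS library and 1 (1.23%) lower, near the 5.62% and 1.02% of all genes. Besides the interleukin genes these were Nos2, which encodes inducible nitric oxide synthase (2.07, 1.73 to 2.49), Cxcl5 (1.45, 1.33 to 1.57), the gelatinase gene Mmp9 (1.45, 1.41 to 1.49), the growth factor gene Csf2 (1.28, 0.70 to 2.02) and the maturation marker gene Cd83 (1.11, 0.58 to 1.77). The selectin gene Sele was lower (-1.18, -1.56 to -0.84). Levels were low for Csf2, at 2.33 against 0.92 CPM, and for Cd83, at 2.58 against 1.16 CPM. Nos2 stood at 10.1 against 2.35 CPM. In the BuOE arm 3 of the 81 (3.70%) were 2-fold higher with radiation, Gadd45b (1.61, 1.53 to 1.70), the chemokine gene Cxcl1 (1.24, 1.07 to 1.43) and Map3k8 (1.02, 0.82 to 1.22), and none was lower. Of all genes, 2.27% were higher and 4.94% lower by as much.

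Between BuOE and PBS without radiation, 9 of the 81 (11.1%) were 2-fold higher and 2 (2.47%) lower, against 8.72% and 4.23% of all genes. Nos2 (2.02, 1.67 to 2.45) and Ccl5 (1.98, 1.62 to 2.41) were the highest. The others were Mmp9 (1.14), Il6 (1.13), Gadd45b (1.11), the iron-binding protein gene Lcn2 (1.11), Csf3 (1.07), Cd83 (1.05) and the adaptor gene Traf1 (1.02). Levels in the PBS library were low for Nos2 (2.35 CPM), Ccl5 (2.32 CPM), Csf3 (1.53 CPM) and Cd83 (1.16 CPM). Csf1, the macrophage growth factor gene, was lower, at 830.9 against 2781 CPM (-1.74, -1.76 to -1.72), as was Sele (-1.30, -1.73 to -0.94).

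**Figure D4:**
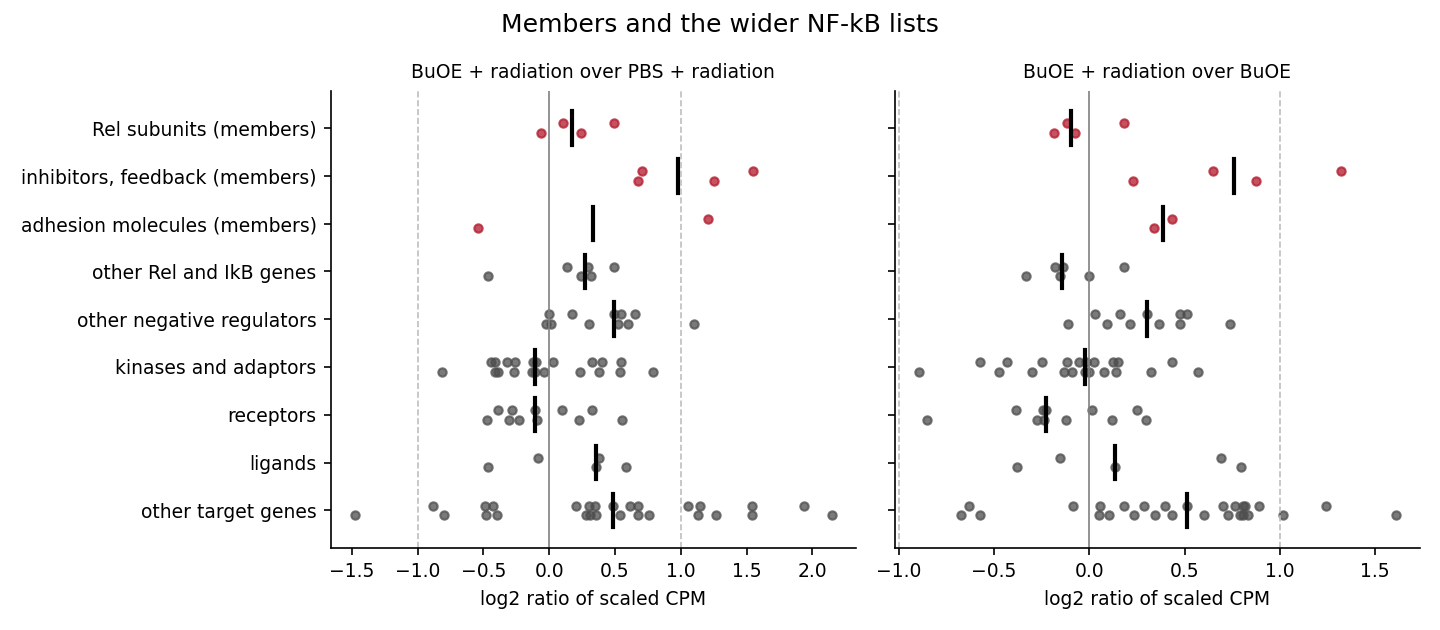
Log2 ratios of scaled CPM for the 10 members (red) and the measured genes of the wider lists (grey), between the irradiated libraries (left) and in the BuOE arm (right); each point is a gene, black bars are list medians and dashed lines mark 2-fold. Inhibitor and feedback genes have medians of 0.98 and 0.76, other negative regulators 0.49 and 0.30, and kinases and adaptors -0.11 and -0.02, which turn to 0.03 and 0.09 with upper-quartile scaling.

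The genes whose pattern over the 4 libraries was closest to that of Nfkbia were Ecm1, Per1, Stbd1, Ddit3 and Pim1, by Euclidean distance of centred log2 CPM among the 9870 genes averaging 10 CPM or more. Ecm1, an extracellular matrix gene, was nearest at a distance of 0.0779. The circadian clock gene Per1 came next at 0.148, with 116.6 CPM in the irradiated BuOE library, 40.9 CPM in the irradiated PBS library, 52.9 CPM in the BuOE library and 30.1 CPM in the PBS library. Ddit3, which encodes the stress factor CHOP, followed Stbd1 at 0.207, and the kinase gene Pim1 stood at 0.224. Among the members, Tnfaip3 ranked 69 in likeness to Nfkbia, Icam1 380, Nfkbiz 483, Birc3 750 and Relb 1666. Rela ranked 3104, Nfkb2 5056, Nfkb1 5633 and Vcam1 8340. With 4 libraries such a distance describes these libraries only.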

How the data were processed

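Cells from the 4 conditions were sequenced in bulk, and the authors deposited raw counts of reads per gene, with 1 column a library. Tools named without a role, per the submitters' processing notes, are featureCounts, edgeR 4.2.2, Salmon 1.4.0 and Trim Galore 0.6.4, with the build GRCm39. Annotation, strand setting and the treatment of reads with several matches are not given in the sources used here. Groups follow the treatment label, and no sample column was left unused.

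GENCODE M21 (GRCm38) gave symbols, transcript lengths and the exon overlaps between genes, matched on the Ensembl ID. Of 56748 IDs, 4623 had no symbol and stayed in the totals. Counts were scaled with TMM (edgeR 4.0.16, R 4.3.3), and log2 ratios used a prior count of 2. Intervals are exact binomial at 95%. Genes averaging 1 CPM or more formed the background. A gene was called at 2-fold and, as a second rule, at 1.5-fold. The ratio and interval steps were tested on simulated counts with counting error only, which cannot show how the intervals cover spread between replicates. DESeq2 1.42.0 gave alternative size factors. Text names all 10 members and, of each wider list, the genes past 2-fold in a comparison or else its highest and lowest. Members and lists were chosen with earlier results of these data known.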

Additional observations from a re-analysis of the deposited data

Results flagged for a closer look

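With TMM scaling, Relb and Icam1 had radiation ratios of opposite sign in the 2 arms, with counting intervals that left out 0 in each. For Relb the ratio was 0.18 in the BuOE arm and -0.15 in the PBS arm, a difference of 0.33. Its ratio in the BuOE arm was only 0.07 with library size alone, for which no interval was computed. For Icam1 the TMM ratio was 0.34 in the BuOE arm and -0.17 in the PBS arm, a difference of 0.51. With 1 library a condition the difference between arms was not tested. Macrophages can express both genes, and their 8 markers summed to 527.5 CPM in the irradiated BuOE library, 352.4 CPM in the irradiated PBS library, 413.3 CPM in the BuOE library and 387.0 CPM in the PBS library. These sums hide a split, since Lyz2 and Cd68 weigh most in them. Among the 8 markers, 4 had radiation ratios above 0 in the BuOE arm and 4 below, with a median of 0.095. The ratios ran from 0.55 for Cd68 to -0.86 for Fcgr1, the only marker with an interval below 0 there. With PBS, 2 markers lay above 0 and 6 below. The part of macrophages in the difference of either gene was not tested.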

How the results depend on the processing

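Scaling by the size factors of DESeq2, by library size or by upper quartiles, leaving out mitochondrial genes, and prior counts of 0.5 and 5 kept the sign of the ratio of each member except those given here. Between the irradiated libraries Nfkbia ranged from 1.52 to 1.69, Tnfaip3 from 1.23 to 1.39, Icam1 from 1.18 to 1.34 and Vcam1 from -0.57 to -0.40, and 3 members stayed 2-fold higher in each setting. With DESeq2 size factors the PBS arm gave -0.0089 for Tnfaip3 and -0.0007 for Birc3, and the difference between arms was 0.0191 for Nfkb1. With library size alone BuOE against PBS gave 0.0427 for Nfkb1 and 0.0155 for Nfkb2, and the difference was -0.0761 for Rela. Upper-quartile scaling gave -0.011 for Tnfaip3 and -0.0028 for Birc3 in the PBS arm, 0.0393 for Rela in the BuOE arm, 0.073 for Nfkb1 between the irradiated libraries and a difference of 0.13 for Nfkb1. It placed 2 members at least 2-fold and 4 at least 1.5-fold above 0 in the difference between arms (0 and 2 with TMM), with 1811 of all genes at 1.5-fold. The median ratio of all genes in the difference was 0.11 with upper quartiles and -0.15 with library size alone, which also gave -0.15 in the BuOE arm, so each member's value moves with such offsets.

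Counts over all genes followed the filter, since it sets how many genes are tested. Without a filter, genes at least 2-fold higher and lower numbered 2330 and 1404 in the PBS arm, 2171 and 2009 in the BuOE arm, 2343 and 2241 between the irradiated libraries and 2850 and 2373 for BuOE against PBS, and 3043 and 4048 for the difference. At 1.5-fold they numbered 4820 and 4029, 5723 and 4560, 6371 and 5171, 5637 and 5626, and 6751 and 6668 in the same order. Among genes averaging 10 CPM or more, those 2-fold higher and lower numbered 245 and 43, 118 and 180, 245 and 347, 433 and 339, and 132 and 390. At 1.5-fold they numbered 540 and 192, 572 and 622, 821 and 1059, 988 and 940, and 592 and 842. No paired analysis was possible because each condition has 1 library. Leaving out a replicate was not possible for the same reason. Each member had at least 982 counts in every library, and the spread between replicates was not measured. With the union of all exons, a length chosen after the data were seen, Nfkb2 over Nfkb1 turned to 1.773, 1.578, 1.697 and 1.729 in the irradiated BuOE, irradiated PBS, BuOE and PBS libraries. Nfkb1 over Rela turned to 0.4119 in the irradiated PBS library, 0.3593 in the BuOE library and 0.4254 in the PBS library.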
